A study of Mus musculus with 12 samples.

Results

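Retinoic acid, made from vitamin A, tells cells of the early embryo where they lie along the body axis. The genes described here make it (Aldh1a2, Aldh1a3), destroy it (Cyp26a1, Cyp26b1, Cyp26c1), turn its precursor back into retinol (Dhrs3), carry it inside the cell (Crabp1, Crabp2) or sense it (Rarb). These 9 genes were chosen by symbol, as all array probes whose transcript accession belongs to one of them. All 9 were found, on 10 probes of 39429, with 2 probes for Rarb, and all 9 were among the 22582 genes or identifiers tested. RNA of whole mouse embryos was hybridised to one-colour Agilent arrays; the embryos were female, at E9.5 (embryonic day 9.5), on a mixed C3HeB/FeJ background. The study asked what the loss of functional Chd7, which remodels chromatin, does to expression while neural crest cells migrate. The 3 groups were wild-type embryos (Chd7+/+), heterozygous embryos (Chd7Whi/+) and homozygous embryos (Chd7Whi/Whi), with 4 arrays of each. They came from matings between heterozygous carriers of whirligig, a single mutant line whose Chd7 allele carries a nonsense mutation in every cell, so all embryos developed in heterozygous mothers. The labels call the arrays of a genotype biological replicates, and p-values measure the spread between these arrays. The number in an array's title was the same, 50, for wild-type replicates 2 and 3. It was also the same, 53, for heterozygous replicates 3 and 4. The labels do not say what this number marks, and the p-values treat all arrays as independent. Replicate numbers follow accession order and only name an array.

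Retinol is oxidised reversibly to retinaldehyde, and retinaldehyde is then oxidised irreversibly to retinoic acid by the Aldh1a enzymes. Aldh1a2 is the main source in the trunk mesoderm, while Aldh1a3 works in the developing eye and nasal region. The Cyp26 enzymes hydroxylate retinoic acid for removal and keep the tail bud, the hindbrain and the anterior head low in it. Retinoic acid binds nuclear receptors paired with retinoid X receptors, which sit on pairs of short repeats near target genes, and Rarb, Cyp26a1 and Dhrs3 are known targets whose transcription rises with the signal.

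The letters that such receptors bind can be read in the promoters of a pair of the genes measured here, and they are shown because Rarb and Cyp26a1 are used as readouts of the signal. The sequences are the 100 bases before each gene's start, 5′ to 3′ on the gene's strand, from RefSeq, assembly GRCm38.p6. Rarb lies at chr14:16575477-16575576 on the minus strand and Cyp26a1 at chr19:37697708-37697807 on the plus strand. Capitals mark a direct repeat of the half-sites AGGTCA or AGTTCA or GGGTCA or GGTTCA with 5 bases between them.
Rarb: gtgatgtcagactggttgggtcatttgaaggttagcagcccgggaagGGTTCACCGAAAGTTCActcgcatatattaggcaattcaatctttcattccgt
Cyp26a1: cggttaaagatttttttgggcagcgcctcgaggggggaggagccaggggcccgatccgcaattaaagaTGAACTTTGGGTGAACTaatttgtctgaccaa
In Rarb the repeat runs from 53 to 37 bases before the start and reads along the gene. In Cyp26a1 it runs from 32 to 16 bases before the start and reads on the opposite strand, as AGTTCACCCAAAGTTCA. Searched on both strands, the repeat occurs in 32 of the 32851 promoter windows of 300 bases in the table, or 0.0974%. The table held 9 windows for 7 of the genes. The same half-sites with 1 or 2 bases between them, found in 0.222% and 0.268% of all windows, occur in none of those 9. A match describes the letters alone, and these arrays did not measure binding.

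All 10 probes were well above background on all 12 arrays, and levels are given as scaled log2 signal, the log2 of a probe's processed signal minus the 75th percentile of its array. A value of 0 is therefore the brightness of that percentile, and values of different probes are not compared with each other. The share of all probes well above background was 70.0% on the lowest array and 76.4% on the highest. The arrays lay on 3 slides, each with all 3 genotypes, while the first position on the slide held 3 arrays, all wild type. On these, wild-type replicates 1, 2 and 4, the median coefficient of variation of the processed signal was 7.65%, 7.45% and 7.07%, per the file headers. It was 3.11% on wild-type replicate 3 and 2.89% to 6.73% on the mutant arrays. For those wild-type arrays genotype, position and this measure cannot be told apart. Chd7 itself was tied to no probe through the gene table used and its level is not analysed here. Heterozygous replicate 1 stood apart before any comparison: the mean of 5 heart muscle markers relative to wild type was -4.74 on the log2 scale, against -0.33 to 0.50 on the other arrays, and its 4 tail bud and presomitic mesoderm markers were 1.34 above, against -0.74 to 0.19. Wild-type replicate 3 stood apart in 5 eye and forebrain markers, at -0.94 against -0.04 to 0.40.

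None of the 9 genes passed an adjusted p of 0.05 in any of the 3 comparisons (limma with Benjamini-Hochberg adjustment over all genes tested). In homozygous minus wild type 0 of 9 were called, where 1.37% of all genes were, and 3 of 9 had an unadjusted p under 0.05, where 16.8% of all genes did: Aldh1a3, Cyp26c1 and Rarb. The same 3 genes were lower in all 4 homozygous arrays than in every wild-type array, a pattern shown in that direction by 7.82% of all genes. In heterozygous minus wild type 0 of 9 were called, against 0.00886% of all genes. There 3 of 9 had an unadjusted p under 0.05, against 15.2% of all genes, and Aldh1a3 and Rarb did not overlap, both lower, as 2.34% of all genes were. In homozygous minus heterozygous 0 of 9 were called, against 0.0133%. There 2 of 9 had an unadjusted p under 0.05, against 5.81%, and Cyp26c1 alone did not overlap, lower, as 1.4% of all genes were. The median log2 difference of the 9 genes was -0.12, -0.05 and -0.16 in the 3 comparisons in that order, beside 0.02, 0.04 and -0.02 for all genes tested.

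**Figure D1:**
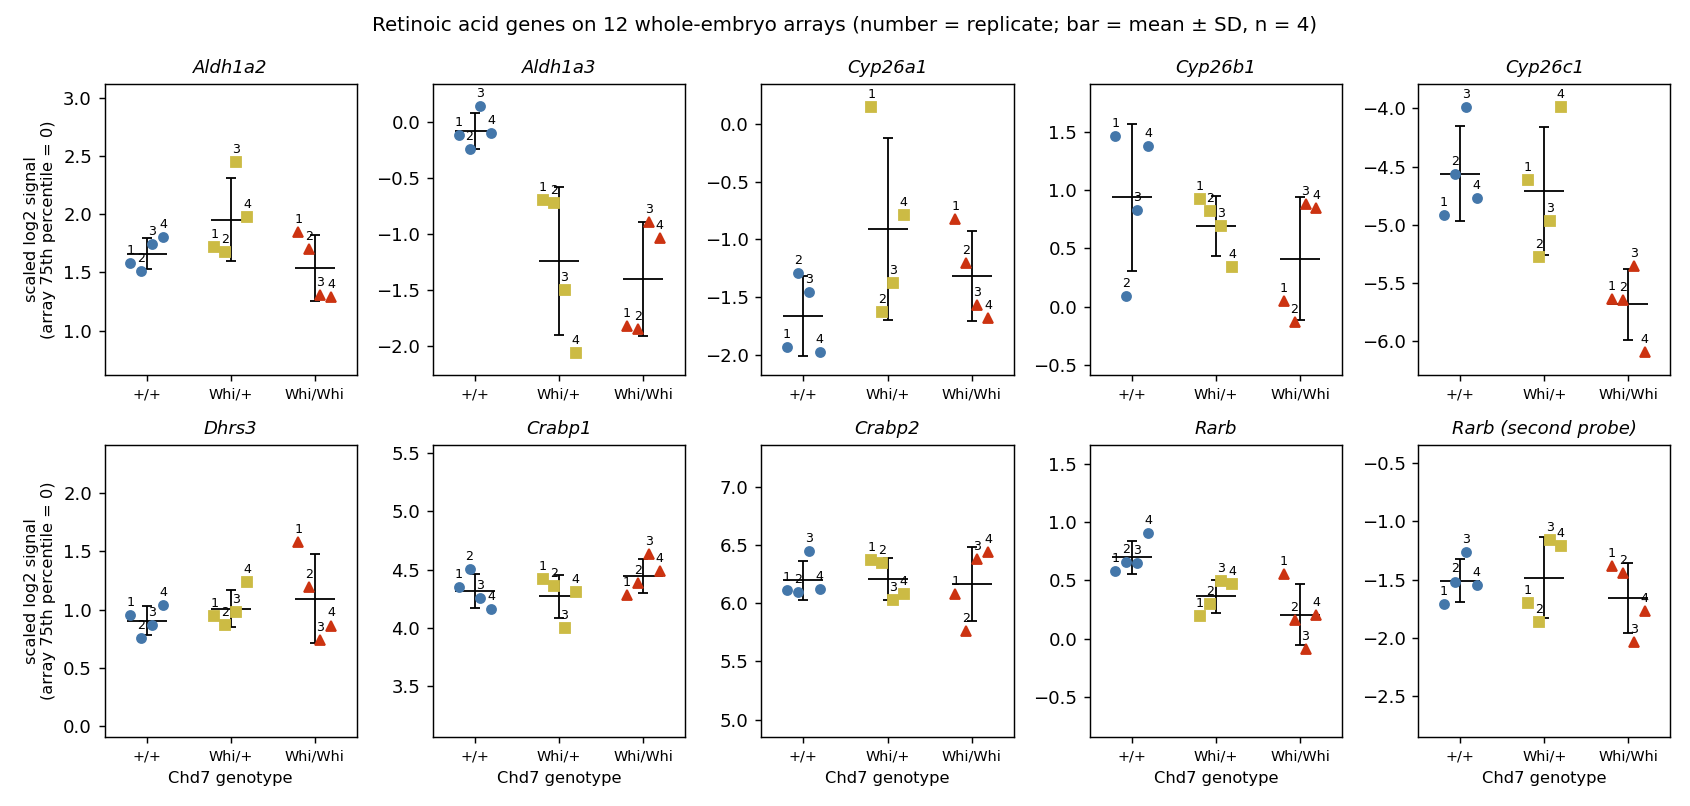
Scaled log2 signal (vertical axis, log2 units) of each probe on the 12 arrays by Chd7 genotype, with the replicate number above each point and bars for the mean ± SD of 4 arrays; the panels have their own level, and most share a height of 2.5 log2 units. All homozygous points of Aldh1a3, Cyp26c1 and the first Rarb probe lie below all wild-type points, while Crabp1 and Crabp2 overlap among the 3 genotypes.

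Of the enzymes that make retinoic acid, Aldh1a3 differed most from wild type. Its scaled log2 signal was -0.12, -0.25, 0.14 and -0.10 in wild-type replicates 1 to 4. In heterozygous replicates 1 to 4 it was -0.69, -0.72, -1.50 and -2.06, and in homozygous replicates 1 to 4 it was -1.83, -1.84, -0.89 and -1.03. All 8 mutant arrays were below all 4 wild-type arrays, while the mutant genotypes overlapped each other fully. The wild-type arrays lay within 0.38 of each other, the heterozygous ones within 1.36 and the homozygous ones within 0.95. The homozygous mean was lower than wild type by 1.32 ± 0.31 on the log2 scale (SE, n = 4 per genotype; 2.49-fold), with a 95% interval of -1.99 to -0.64 and an adjusted p of 0.0664. The heterozygous mean was lower by 1.16 ± 0.31 (2.24-fold), with a 95% interval of -1.84 to -0.49 and an adjusted p of 0.248. Homozygous minus heterozygous was -0.16 ± 0.31, with an interval of -0.83 to 0.52, so the order of the genotype means, wild type above heterozygous above homozygous, is not resolved between the mutants.

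The homozygous minus wild type difference of Aldh1a3 was close to the threshold and crossed it in some alternatives. The adjusted p was 0.0275 without heterozygous replicate 4, the lowest array of that group, 0.0305 in a fit to the wild-type and homozygous arrays alone, and 0.0455 with array weights. Leaving out any single wild-type or homozygous array raised it, to between 0.0758 and 0.194. Over 26 alternatives the difference ran from -1.50 to -1.15 and the adjusted p from 0.0275 to 0.9999. Both the -1.50 and the 0.9999 came with position on the slide as a block. The first position held wild-type arrays alone, so that fit compared wild type with the mutants through wild-type replicate 3 only. Without wild-type replicate 3 homozygous minus wild type was -1.24, and heterozygous minus wild type was -1.34 without heterozygous replicate 1. Within slides 1, 2 and 3 homozygous minus wild type was -1.70, -1.79 and -0.86, from 1 or 2 arrays of a genotype on each slide. Of 5 markers of the eye and forebrain, regions that include sites of Aldh1a3 activity, 3 were higher and 2 lower in homozygous embryos, with a median difference of 0.07, none was called, and 2 had an unadjusted p under 0.05. Wild-type replicate 3, whose eye and forebrain markers were the lowest of all arrays, had the highest Aldh1a3. A link between these markers and Aldh1a3 was not tested. RNA of a whole embryo cannot tell fewer cells of a type from less RNA in each cell.

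Aldh1a2, the enzyme of the somites and trunk mesoderm without which the embryo makes almost no retinoic acid at this stage, overlapped among all 3 genotypes. It read 1.58, 1.51, 1.74 and 1.80 in wild type, 1.71, 1.68, 2.45 and 1.97 in heterozygous and 1.85, 1.70, 1.31 and 1.29 in homozygous replicates 1 to 4. Heterozygous replicate 3 was the highest array and homozygous replicates 3 and 4 the lowest. The homozygous minus wild type difference was -0.12 ± 0.18 (SE), with a 95% interval of -0.52 to 0.27 (adjusted p = 0.758). Heterozygous minus wild type was 0.29 ± 0.18 (adjusted p = 0.429), and without heterozygous replicate 3 it was 0.13. Homozygous minus heterozygous was -0.42 ± 0.18, with an unadjusted p of 0.0410 and an adjusted p of 0.849, and was -0.25 without that same array. The highest mean was that of the heterozygous embryos, followed by wild type and homozygous, and no neighbours in this order differed past the threshold.

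None of the enzymes that destroy retinoic acid passed the threshold in any comparison. Cyp26c1, expressed in the anterior hindbrain and head mesenchyme and a neighbour of Cyp26a1 on chromosome 19, had its lowest mean in homozygous embryos and its highest in wild type. Its scaled log2 signal was -4.92, -4.57, -3.99 and -4.77 in wild type, -4.62, -5.28, -4.96 and -3.99 in heterozygous and -5.64, -5.64, -5.35 and -6.09 in homozygous replicates 1 to 4. All 4 homozygous arrays were below all 8 others, and wild-type and heterozygous arrays overlapped. Homozygous minus wild type was -1.12 ± 0.28 (SE; 2.18-fold lower), with a 95% interval of -1.73 to -0.52 and an adjusted p of 0.0795. Homozygous minus heterozygous was -0.97 ± 0.28, with an unadjusted p of 0.00444 and an adjusted p of 0.551, and heterozygous minus wild type was -0.15 ± 0.28 (adjusted p = 0.791).

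The probe of Cyp26c1 had a low signal on every array. Its processed signal was 45.9 to 83.1 in wild type, 32.2 to 65.9 in heterozygous and 21.9 to 32.7 in homozygous embryos, and every array called it well above background. After normexp background correction, which adds 50 to each signal and so tends to shrink differences of dim probes, homozygous minus wild type was -0.79 (adjusted p = 0.313). There wild-type replicate 2 stood apart, at -2.26 beside -3.59, -3.19 and -3.72 in wild-type replicates 1, 3 and 4. The wild-type SD was 0.66 with normexp and 0.41 without it. Homozygous minus wild type crossed the threshold without heterozygous replicate 4 (adjusted p = 0.0339) and with array weights (0.0384). It also did so with the wild-type and homozygous arrays alone (0.0456) and with median scaling (0.0479). Its adjusted p ranged up to 0.401 over the 26 alternatives. Within slides 1, 2 and 3 the difference was -0.72, -1.37 and -0.95.

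Cyp26a1, the enzyme that clears retinoic acid from the tail bud and head and a direct target of the signal, had a different order, with the heterozygous mean highest and the wild-type mean lowest. It read -1.93, -1.29, -1.45 and -1.98 in wild type, 0.15, -1.63, -1.38 and -0.79 in heterozygous and -0.82, -1.21, -1.57 and -1.68 in homozygous replicates 1 to 4. Heterozygous replicate 1, with high tail bud and low heart markers, was far above the other 11 arrays, and the genotypes overlapped. Heterozygous minus wild type was 0.75 ± 0.34 (SE), with an unadjusted p of 0.0497 and an adjusted p of 0.329, and was 0.40 (adjusted p = 0.488) without that array. Homozygous minus wild type was 0.34 ± 0.34, with a 95% interval of -0.41 to 1.09 (adjusted p = 0.639), and was 0.18 without homozygous replicate 1. Homozygous minus heterozygous was -0.41 ± 0.34 (adjusted p = 0.972), and was -0.06 without heterozygous replicate 1. The homozygous array with the highest Cyp26a1, replicate 1, had the lowest tail bud markers of all arrays, at -0.74. A link between these markers and Cyp26a1 was not tested.

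Cyp26b1, which protects hindbrain, limb and craniofacial tissue from retinoic acid, varied within genotypes as much as between them. It read 1.46, 0.09, 0.83 and 1.37 in wild type, 0.92, 0.82, 0.69 and 0.34 in heterozygous and 0.05, -0.14, 0.88 and 0.84 in homozygous replicates 1 to 4. Wild-type replicate 2 and homozygous replicates 1 and 2 were the low arrays. The means descended from wild type through heterozygous to homozygous, and neighbours in that order overlapped. The difference of homozygous minus wild type was -0.53 ± 0.31 (SE), with a 95% interval of -1.22 to 0.16 (adjusted p = 0.413). It was -0.81 without wild-type replicate 2, and -0.35 without homozygous replicate 2. Heterozygous minus wild type was -0.25 ± 0.31 (adjusted p = 0.697) and homozygous minus heterozygous was -0.28 ± 0.31 (adjusted p = 0.993).

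**Figure D2:**
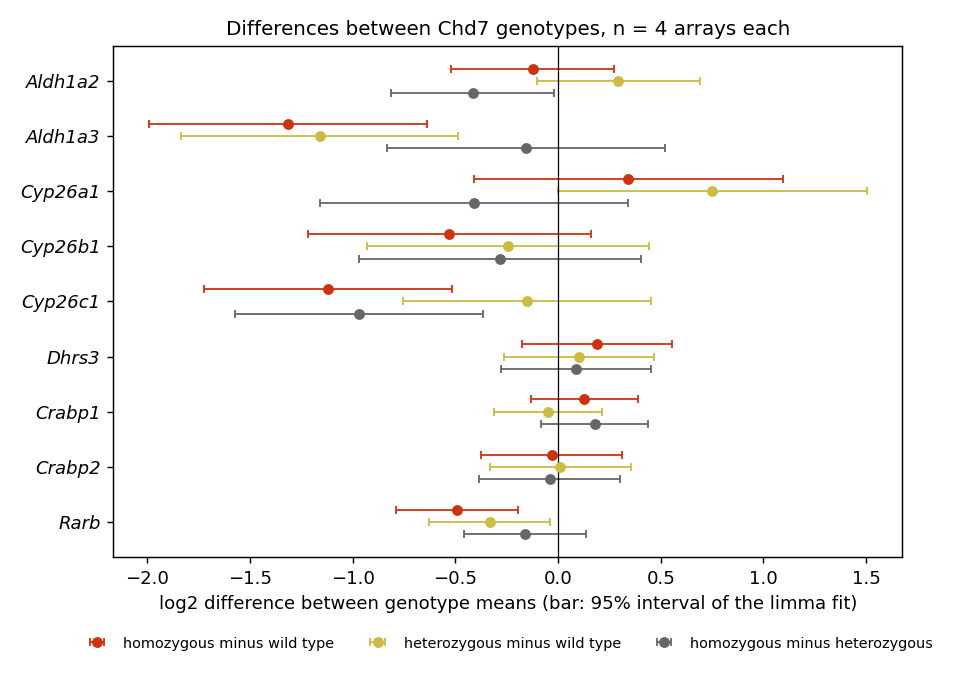
Log2 difference between genotype means (horizontal axis) of the 9 genes in the 3 comparisons, with points for the estimate and bars for the 95% interval of the limma fit, from 4 arrays per genotype. The intervals of homozygous minus wild type leave out 0 for Aldh1a3, Cyp26c1 and Rarb alone, and none of these differences passed the adjusted threshold.

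Dhrs3, which reduces retinaldehyde back to retinol and so limits how much retinoic acid is made, read 0.96, 0.76, 0.87 and 1.04 in wild type, 0.94, 0.87, 0.98 and 1.24 in heterozygous and 1.58, 1.20, 0.74 and 0.87 in homozygous replicates 1 to 4. Homozygous replicate 1 was the highest array and homozygous replicate 3 the lowest, so the homozygous arrays spanned the others. For homozygous minus wild type the difference was 0.19 ± 0.17 (SE), with a 95% interval of -0.17 to 0.55 (adjusted p = 0.587), and was 0.03 without homozygous replicate 1 and 0.31 without homozygous replicate 3. Heterozygous minus wild type was 0.10 ± 0.17 (adjusted p = 0.766). Homozygous minus heterozygous was 0.09 ± 0.17.

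The binding proteins were among the steadiest of the genes. Crabp1, a carrier abundant in migrating neural crest and hindbrain that leads retinoic acid to the enzymes that degrade it, read 4.35, 4.50, 4.26 and 4.16 in wild type, 4.42, 4.36, 4.00 and 4.30 in heterozygous and 4.28, 4.39, 4.63 and 4.48 in homozygous replicates 1 to 4. All genotypes overlapped. The homozygous mean differed from wild type by 0.13 ± 0.12 (SE), with a 95% interval of -0.13 to 0.39 (adjusted p = 0.608), heterozygous minus wild type was -0.05 ± 0.12 and homozygous minus heterozygous was 0.18 ± 0.12 (adjusted p = 0.932). In the same homozygous embryos 2 of 4 neural crest markers were called, where 1.37% of all genes were, and both were higher than in wild type: Sox10 by 1.18 (adjusted p = 0.0154) and Foxd3 by 1.34 (adjusted p = 0.0202). The other markers differed by -0.04 for Ets1 and 0.05 for Erbb3, and did not pass.

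Crabp2 delivers retinoic acid to its nuclear receptors. It read 6.12, 6.10, 6.45 and 6.12 in wild type, 6.37, 6.35, 6.02 and 6.08 in heterozygous and 6.08, 5.76, 6.38 and 6.44 in homozygous replicates 1 to 4. The genotype means lay within 0.04 of each other, the narrowest range of the 9 genes, and homozygous minus wild type was -0.03 ± 0.16 with a 95% interval of -0.37 to 0.31 (adjusted p = 0.940). Heterozygous minus wild type was 0.01 ± 0.16 (adjusted p = 0.980) and homozygous minus heterozygous was -0.04 ± 0.16.

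Rarb, the retinoic acid receptor whose promoter repeat is printed above, gave different results on its probes. The brighter probe, A_55_P1962154, read 0.58, 0.66, 0.65 and 0.91 in wild type, 0.20, 0.30, 0.49 and 0.47 in heterozygous and 0.55, 0.16, -0.09 and 0.20 in homozygous replicates 1 to 4. Every mutant array was below every wild-type array, narrowly for homozygous replicate 1, and the mutant genotypes overlapped. Homozygous minus wild type was -0.49 ± 0.14 (SE; 1.41-fold lower), with a 95% interval of -0.79 to -0.20 and an adjusted p of 0.113, and heterozygous minus wild type was -0.33 ± 0.14 with an adjusted p of 0.296. Homozygous minus heterozygous was -0.16 ± 0.14, and heterozygous minus wild type was -0.28 without heterozygous replicate 1. Within slides 1, 2 and 3 homozygous minus wild type was -0.03, -0.50 and -0.85 on this probe.

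The second Rarb probe, A_55_P2084807, did not separate the genotypes. It read -1.71, -1.52, -1.26 and -1.55 in wild type, -1.70, -1.86, -1.16 and -1.21 in heterozygous and -1.39, -1.44, -2.03 and -1.77 in homozygous replicates 1 to 4. Arrays of all genotypes overlapped. Homozygous minus wild type was -0.15 ± 0.19, with a 95% interval of -0.56 to 0.27 (adjusted p = 0.727, in a fit of every probe), and heterozygous minus wild type was 0.03 ± 0.19 (adjusted p = 0.952). The intervals of the probes overlap, and their difference was not tested.

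How much the genes varied among embryos of the same genotype differed widely. The residual SD of the fit was 0.55 for Cyp26a1, 0.50 for Cyp26b1, 0.49 for Aldh1a3 and 0.43 for Cyp26c1, larger than those of 92.9%, 90.8%, 90.4% and 87.1% of all genes tested. It was 0.27 for Aldh1a2, 0.25 for Dhrs3, 0.23 for Crabp2, 0.19 for Rarb and 0.16 for Crabp1, beside a median of 0.21 over all genes. The 3 Cyp26 genes and Aldh1a3 were thus the most variable of the 9, and Rarb and Crabp1 lay below the median.

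Part of this spread ran beside markers of yolk sac and visceral endoderm, a tissue from which the embryos had been dissected, per the labels' protocols. All 6 markers (Afp, Ttr, Apoa1, Apoa4, Apob and Amn) were well above background on every array except homozygous replicate 3, where 4 were. Their mean relative to wild type was -1.15, 1.67, 0.69 and -1.21 in wild type, 0.38, 0.87, 1.16 and 1.73 in heterozygous and 3.21, 1.89, -1.73 and -0.88 in homozygous replicates 1 to 4. All 6 had a higher mean in homozygous and in heterozygous than in wild-type embryos, and none was called. Within the heterozygous arrays Cyp26b1 and Aldh1a3 both descended as this mean rose. Within the wild-type and homozygous arrays the pair with the lower yolk sac mean had the higher Cyp26b1, and homozygous replicates 1 and 2, with the highest yolk sac means, had the lowest Aldh1a3 of that genotype, while wild-type Aldh1a3 followed no such order. Cyp26a1 ran the other way in part: its values ascended in the order of the yolk sac mean in wild type and was highest in homozygous replicates 1 and 2, but followed no such order in heterozygous embryos. These genes were picked out after their values were seen.

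With the yolk sac mean as a covariate, an alternative chosen after seeing the data, homozygous minus wild type was -1.19 for Aldh1a3 (adjusted p = 0.0505), -1.16 for Cyp26c1 (0.0830), -0.53 for Rarb (0.0748) and -0.36 for Cyp26b1 (0.327). In the same fit heterozygous minus wild type was -0.96 for Aldh1a3 (adjusted p = 0.344) and 0.04 for Cyp26b1, in place of -0.25. Without the covariate, homozygous minus wild type was -1.32 for Aldh1a3, -1.12 for Cyp26c1, -0.49 for Rarb and -0.53 for Cyp26b1. Whether yolk sac tissue accounts for any part of these differences was not tested. What sets the yolk sac markers of an embryo was not tested.

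**Figure D3:**
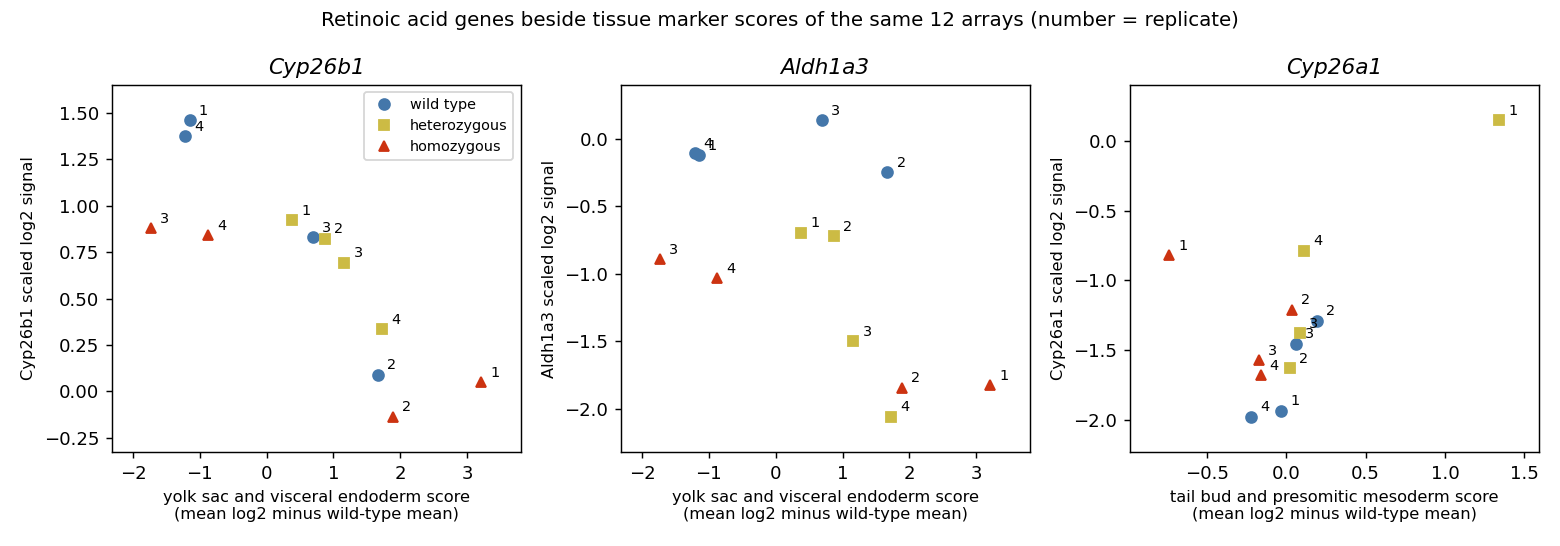
Scaled log2 signal of Cyp26b1, Aldh1a3 and Cyp26a1 (vertical axes) against the mean log2 of tissue markers relative to wild type (horizontal axes; yolk sac and visceral endoderm for the first pair, tail bud and presomitic mesoderm for the last), 1 numbered point per array. Cyp26b1 is low where yolk sac markers are high in each genotype, and heterozygous replicate 1 is far to the upper right for Cyp26a1. Wild-type Aldh1a3 lies above all mutant points. Wild-type yolk sac means run only from -1.21 to 1.67. Homozygous replicates 1, 2 and 3 and heterozygous replicate 4 lie outside that range.

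The wider pathway was described on a list of 45 genes, of which 42 were tested and Lrat, Adh7 and Dhrs9 were too dim. In homozygous minus wild type 3 of 42 were called, all lower, as 0.85% of all genes were: Aldh1a7, Nr2f1 and Cdx1. The other 39 did not pass, and over all 42 the difference was positive for 20 and negative for 22, with a median of -0.02 beside 0.02 for all genes. None passed among 5 genes of vitamin A uptake and storage, 8 of retinol oxidation and reduction, 5 nuclear receptors and 6 co-regulators, nor did the binding protein Fabp5. Of 15 known response genes 2 passed, both lower. In heterozygous minus wild type 0 of 42 were called by limma, against 0.00886% of all genes, and 8 had an unadjusted p under 0.05, against 15.2%. In homozygous minus heterozygous 0 of 42 were called, against 0.0133%, and 6 had an unadjusted p under 0.05, against 5.81%. There the difference was negative for 33 of 42, with a median of -0.07 beside -0.02 for all genes, and whether this sets the list apart was not tested.

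Nr2f1 (COUP-TFI), an orphan nuclear receptor induced by retinoic acid in the hindbrain and neural crest, read 5.24, 4.68, 4.90 and 5.03 in wild type, 4.62, 4.39, 4.55 and 4.27 in heterozygous and 3.85, 3.73, 4.50 and 4.07 in homozygous replicates 1 to 4. All 8 mutant arrays were below all wild-type arrays. It fell by 0.93 ± 0.17 in homozygous embryos on the log2 scale (SE; adjusted p = 0.0221), and its second probe gave -1.02 (adjusted p = 0.0365). Heterozygous minus wild type was -0.51 ± 0.17 and did not pass. The homozygous call was lost, with an adjusted p of at most 0.0855, when any of homozygous replicates 1, 2 and 4 or wild-type replicates 1 and 4 was left out.

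Cdx1, a caudal homeobox gene of the posterior body and a direct target of the receptors, read 0.35, 0.56, 0.50 and 0.50 in wild type, 0.36, 0.25, 0.28 and 0.06 in heterozygous and -0.09, 0.07, -0.51 and -0.80 in homozygous replicates 1 to 4. Every homozygous array was below every wild-type array. It fell by 0.81 ± 0.17 in homozygous embryos on the log2 scale (SE; adjusted p = 0.0388). The call was lost, with an adjusted p of at most 0.117, when any of 8 of the 12 arrays was left out: each wild-type array, homozygous replicates 1, 3 and 4, or heterozygous replicate 3. Over the 12 such fits the difference lay between -0.94 and -0.66.

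Aldh1a7, a close copy of the retinaldehyde dehydrogenase Aldh1a1 in the mouse, read -2.78, -2.59, -2.43 and -2.69 in wild type, -3.36, -3.00, -3.73 and -2.91 in heterozygous and -4.13, -4.19, -3.58 and -3.44 in homozygous replicates 1 to 4. All mutant arrays were below all wild-type arrays. It fell by 1.21 ± 0.21 in homozygous embryos on the log2 scale (SE; adjusted p = 0.0170), and the call was lost without homozygous replicate 1 or 2 or wild-type replicate 4, with an adjusted p of at most 0.0592. Because the copies are alike, RNA of Aldh1a1 may also bind this probe. Aldh1a1 itself differed by -0.42 and did not pass. Normexp background correction, the position on the slide as a block and the title number as a block each ended the calls of Aldh1a7, Nr2f1 and Cdx1. The position block compares wild type with the mutants through wild-type replicate 3 alone. The title number block compares homozygous embryos with the others through homozygous replicates 2 and 3 alone.

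**Figure D4:**
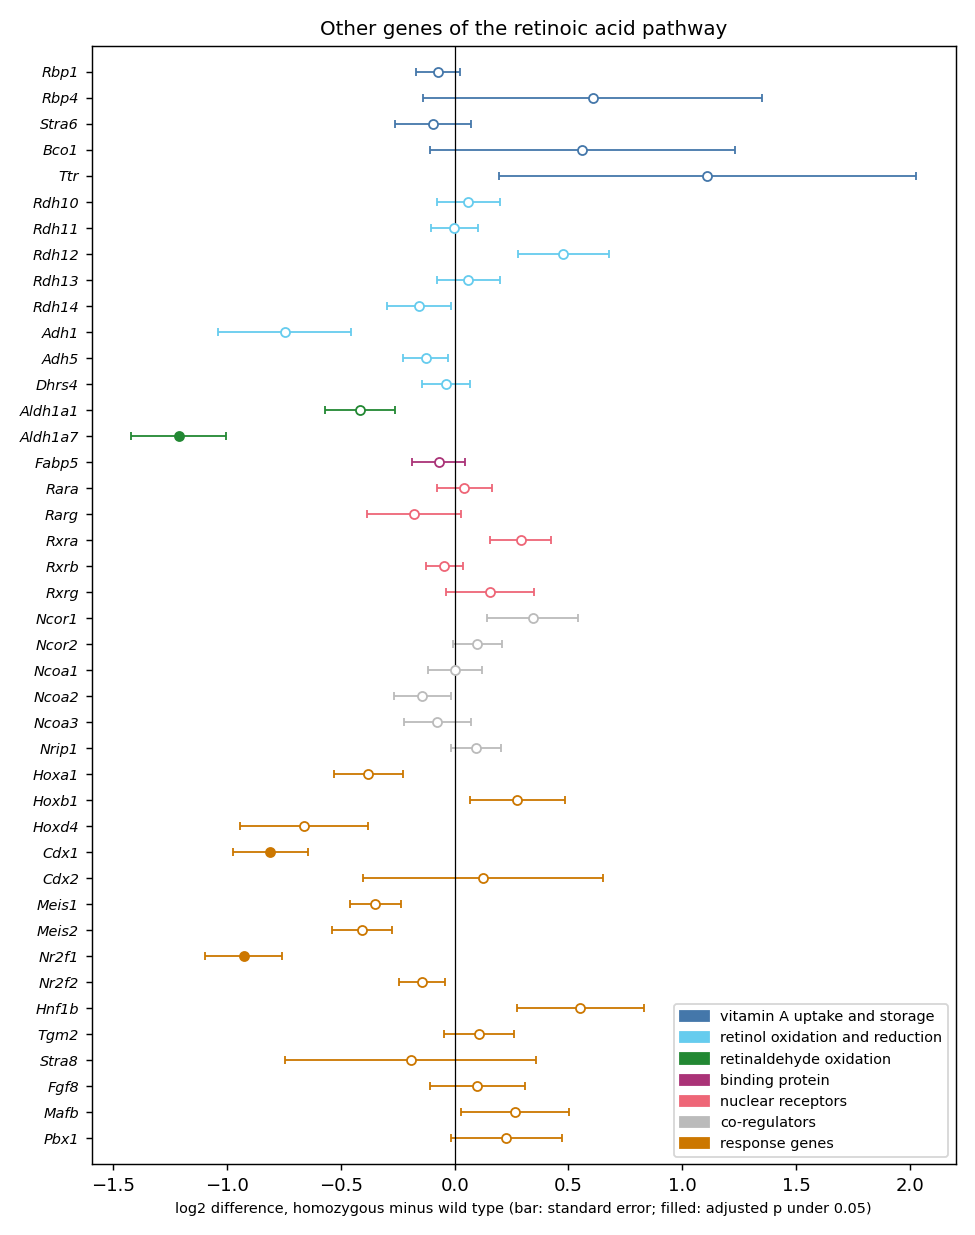
Log2 difference of homozygous minus wild type (horizontal axis) for the 42 tested genes of the wider pathway list, grouped by role in colour, with bars for the standard error of the limma fit from 4 arrays per genotype. Filled points, those of Aldh1a7, Cdx1 and Nr2f1, passed the adjusted threshold, and all 3 lie left of 0, while Ttr has the widest bar.

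The named genes outside the 9 whose 12 array values were most like those of the 3 genes with the widest range of genotype means were found by the smallest root mean square difference after centring. For Aldh1a3, with a range of 1.32, they were Gpm6b (0.29) and Clvs1 (0.31), and homozygous minus wild type was -1.21 for Gpm6b (adjusted p = 0.0515) and -1.39 for Clvs1 (adjusted p = 0.0180). For Cyp26c1, with a range of 1.12, they were Slc35d3 (0.33) and Pcsk1 (0.34), with differences of -0.99 (adjusted p = 0.0323) and -0.76 (adjusted p = 0.0658). The call of Clvs1 was lost, with an adjusted p of at most 0.0703, without homozygous replicate 1, 2 or 3 or wild-type replicate 1 or 4. The call of Slc35d3 was lost, with an adjusted p of at most 0.109, without homozygous replicate 2, 3 or 4 or any wild-type array, and its difference was -0.54 with normexp background correction. For Cyp26a1, with a range of 0.75, they were Naaa (0.31) and Hoxb1 (0.32), and neither differed past the threshold between homozygous and wild-type embryos. Likeness here is over the same 12 arrays and says nothing of shared control. The values compared include the genotype differences, so the differences of these genes follow from how they were picked and are no separate result.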

How the data were processed

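The arrays were Agilent 4x44K v2 mouse arrays in 1 colour (Cy3), quantified with Agilent Feature Extraction 10.7.3.1, per the file headers. The deposited intensity used is the processed signal of each spot, background-corrected by that software, per the file headers, and not scaled between arrays. The deposited value table held identical intensity values on a linear scale without centring, with column medians of 97.6 to 140.7. The submitters' processing notes also name limma.

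From these, signals were put on a log2 scale and each array's 75th percentile was subtracted. Control spots (1377) and outlier spots (171 to 386 per array) were left out. No spot was saturated. Spots of a probe were averaged, 26055 of 39429 probes were named through RefSeq accessions (assembly GRCm38.p6, used for names, neighbours and promoter sequences), and the probe with the highest mean stood for a gene. A probe entered the test if 1 or more genotypes had it well above background on all 4 arrays. limma 3.58.1 in R 4.3.3 fitted 1 mean per genotype to the 12 arrays (lmFit and eBayes), with Benjamini-Hochberg adjustment over 22582 genes and a threshold of 0.05, two-sided. The procedure was tested on simulated data with independent noise of each gene's own spread. These held no slide, position, title number or yolk sac effect, so the test bears on the fit alone.

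Every one of the 9 genes is named, of the wider list those past the threshold in any comparison, and for the 3 genes with the widest range of genotype means the 2 genes most like each. The genes and lists were chosen with earlier results of these data known. Alternatives were normexp (offset 50; planned on the mean, run on the median spot signal), quantile and median scaling, the value table, other filters, every probe, slide, position or title number as a block, another variance model, array weights, only the genotypes compared, leaving out each array, and, chosen after seeing the data, yolk sac markers as a covariate. Title numbers shared between genotypes were not shown to pair embryos: same-numbered arrays of different genotypes had correlations of deviations from -0.32 to 0.29 over 11 pairs, with a median of 0.02, and the other 37 pairs had the same median. Same-numbered arrays of the same genotype were not checked in this way. Python 3.11.15 with matplotlib 3.10.9 drew the figures. The number of arrays limits the precision.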

Additional observations from a re-analysis of the deposited data

Results flagged for a closer look

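Over 10 probes and 3 genotypes, 30 groups of 4 arrays were checked for an array far from the others by Dixon's ratio of gap to range, for which chance gives about 1 in 20 groups, and 1 group was picked out. It was Crabp2 in wild-type replicate 3, with a scaled log2 signal of 6.45 beside 6.10 to 6.12 in the other wild-type arrays and a ratio of 0.935, past Dixon's 95% critical value for 4 arrays. Homozygous replicate 4 read nearly the same, at 6.44.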

How the results depend on the processing

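The count of called genes was 0 of 9 in the 3 comparisons, and stayed 0 for heterozygous minus wild type and homozygous minus heterozygous under all alternatives run. For homozygous minus wild type it was 1 with median scaling (Cyp26c1) and 2 with array weights or with the 2 genotypes compared alone (Aldh1a3 and Cyp26c1). Leaving out each array gave 0 to 2, with 2 only without heterozygous replicate 4. Of 702 single differences under an alternative, 695 kept their side of the threshold and 7 came to pass it. Of the 702, 31, all of them uncalled, changed sign. Part of the 702 could not move: the value table held identical intensities. Leaving out an array of the genotype not compared could change the adjusted p but not the difference. The replicate block on the title numbers gave -1.18 for Aldh1a3 (adjusted p = 0.380) in limma. It called none of the 9 genes and ended the calls of Aldh1a7, Nr2f1 and Cdx1, but the numbers were not shown to pair embryos. No other array had the title number of homozygous replicate 1 or 4. That block therefore set homozygous embryos against the others through homozygous replicates 2 and 3 alone. Over all genes, homozygous minus wild type called 310, and 94 with normexp, 187 with no filter, 18 with position as a block, 20 with the title number block, 522 with array weights, and 109 to 454 leaving out an array (109 without wild-type replicate 4, 454 without heterozygous replicate 4). The other comparisons called 0 to 5 and 0 to 10 genes. With position as a block, wild type was set against the mutants through wild-type replicate 3 alone. Normexp moved the median difference of all genes from 0.02 to -0.10 in homozygous minus wild type. Cdx1 also lost its call with no filter on dim probes and with the 2 genotypes alone. The causes were not tested. The Cyp26c1 probe was dim, and its homozygous minus wild type difference was -0.79 with normexp.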
